A study of Drosophila melanogaster with 6 samples.

Results

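The genes described here drive and police cell division in Drosophila: the mitotic cyclins and kinases, the chromosomal passenger complex, the spindle assembly checkpoint, securin and separase, spindle motors, centromere proteins and the cytokinesis machinery. They were listed by symbol, and each was matched to its gene and to the probe sets that the platform annotation pairs with that gene alone. Of 34 genes listed, 25 had such a probe set, 1 each, among 11983 genes so paired on the whole array. CycA, Cdk1, polo, aurA, BubR1, asp, cnn, pav and sti had none named for them and were not analysed here. All 25 passed the filter on dim probe sets, and their signals lay above 17.3, the 95th percentile of 100 control probe sets for foreign sequences, on all 6 arrays.

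In the textbook account, cyclin B-bound Cdk1, with the Polo and Aurora kinases, drives a cell into mitosis, and Greatwall kinase holds back the phosphatase that opposes Cdk1. The spindle assembly checkpoint delays anaphase until every kinetochore is attached to the spindle. The anaphase-promoting complex then marks cyclin B and securin for destruction, separase opens the cohesin rings, and a contractile ring at the spindle midzone divides the cell.

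The arrays measured total RNA of S2 cells, an embryonic Drosophila cell line with hemocyte-like features, which take up double-stranded RNA (dsRNA) and then degrade the matching mRNA. In 3 samples, replicates 1 to 3, the dsRNA matched spotted-dick, a zinc-finger gene now named pita, and in another 3 it matched GFP, a jellyfish gene absent from flies, as the control. All were incubated for 5 days, and each was hybridised to 1 Affymetrix Drosophila_2 array. From what is known of the study, it asked whether spotted-dick is needed for Orc4 expression and for S phase, and the comparison below asks what the genes of mitosis did in the same RNA. The labels name 1 dsRNA against spotted-dick and no rescue, so loss of the gene and other effects of that dsRNA cannot be told apart, nor do they say that replicates were separate cultures, so p-values may measure technical spread only.

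The targeted transcript was lower on all 3 spotted-dick arrays, where pita had signals of 26.0, 52.1 and 33.0, against 253.0, 297.6 and 313.7 on the GFP arrays (log2 change -2.54 ± 0.16, SE, limma adjusted p = 7.64e-08). Orc4, a subunit of the origin recognition complex, had 2.5, 16.2 and 4.2 on the spotted-dick arrays, against 105.9, 130.1 and 117.0 on the GFP arrays. Of 10 hemocyte markers, 8 lay above the foreign-sequence level on all 6 arrays, with vkg, Col4a1 and srp the highest, and NimC1 on none. Among the 10, Pxn, an extracellular matrix peroxidase gene named after its value was seen, rose (log2 change 1.40, limma adjusted p = 0.000416). Its signals were 82.9, 63.0 and 72.0 on the spotted-dick arrays, against 25.1, 11.1 and 17.8 on the GFP arrays, near the foreign-sequence level. Another Pxn probe set lay below that level on all 6 arrays. The part of Pxn in the results below was not tested. The summed marker signal was 12828.8 to 13447.6 on the spotted-dick arrays and 13174.4 to 13814.7 on the GFP arrays. Its largest parts were vkg and Col4a1. Of the neuron markers 2 of 4 lay above the foreign-sequence level on all 6 arrays, of the muscle markers 0 of 3, of the fat body markers 0 of 4 and of the germline markers 1 of 3. The trimmed mean of the deposited signals was 125.4 to 138.8 on the spotted-dick arrays and 125.8 to 189.6 on the GFP arrays. All other signals given here, those of pita, Orc4 and the markers included, are therefore quantile-normalized, which gives every array the same distribution, and changes are spotted-dick minus GFP on the scale log2(signal + 16). The number of arrays limits the precision.

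None of the 25 measured members of the list passed the test after spotted-dick RNAi. In limma, 0 of them reached a Benjamini-Hochberg adjusted p under 0.05, against 2.47% of the 8266 genes tested, 0.774% as higher and 1.69% as lower. At an unadjusted p under 0.05 after quantile normalization, 6 of the 25 lay higher and 0 lower, against 6.73% and 6.59% of tested genes. These 6 were Cenp-C, aurB, feo, Zw10, gwl and Bub3. This count depended on the scaling. With the deposited values the confidence intervals of all 6 included 0, that of Cenp-C running from -0.34 to 0.54. There no member's interval lay wholly above 0, and that of Klp10A lay below 0, from -0.91 to -0.02. After quantile normalization the measured changes were small, from -0.20 for Klp10A to 0.36 for Cenp-C, and 13 of the 25 lay within 0.1 of 0. Of all tested probe sets, 26.8% had a change below -0.10 and 70.5% one below 0.10, so many others also lay near 0. The median of the 25 was 0.10, against 0.01 over all tested genes. In bulk RNA, fewer or more cells in mitosis and less or more RNA per cell cannot be told apart.

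After quantile normalization, the 95% intervals of all 25 genes lay inside 1.5-fold either way, against 70.8% of tested genes, and so also inside 2-fold, against 96.0% of tested genes. The lowest bound was -0.44, for Klp10A, and the highest 0.58, for Cenp-C. These bounds depend on the scaling: with the deposited values the changes of 23 of the 25 lay below these intervals, as all tested genes had a median of -0.21 there. The intervals of that fit lay inside 1.5-fold for 9 of the 25 and inside 2-fold for 25. Their lowest bound was -0.91, for Klp10A, and their highest 0.54, for Cenp-C. In limma that fit had infinite prior degrees of freedom, against 10.6 in the main fit. Its intervals and adjusted p-values therefore rest on a spread shared by genes of similar signal, not on each gene's own replicate spread. The members varied little among replicates, with a median residual SD of 0.11 on the log2 scale, against 0.14 over all tested genes. Of all tested genes, 72.5% lay above the foreign-sequence level on all 6 arrays, as the 25 members did.

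**Figure D1:**
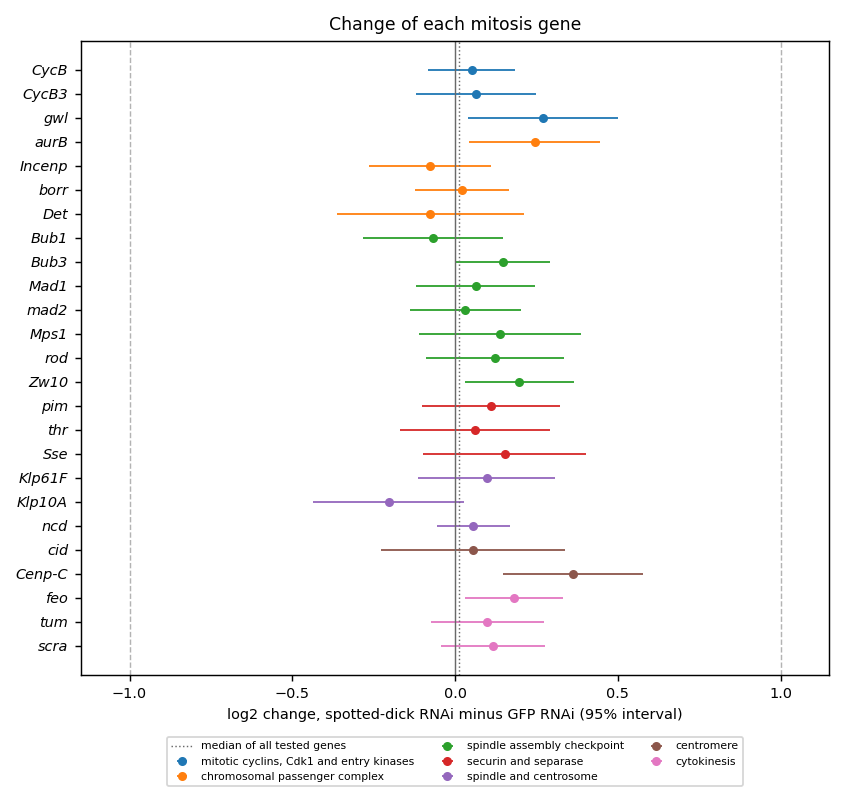
Points are log2 changes of the 25 measured mitosis genes (spotted-dick RNAi minus GFP RNAi, quantile-normalized, 3 arrays each) and bars their 95% intervals, coloured by role; the dotted line is the median of all tested genes and dashed lines mark a 2-fold change. Changes run from -0.20 for Klp10A to 0.36 for Cenp-C, and no interval of this fit reaches a 2-fold change.

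Of the cyclins that pair with Cdk1, CycB and CycB3 had nearly the same signal in both groups, and CycA was not measured. CycB, the cyclin whose destruction ends mitosis, had signals of 894.6, 846.8 and 865.4 on the spotted-dick arrays, against 879.4, 837.7 and 799.2 on the GFP arrays. The groups overlapped, and the change of 0.05 ± 0.06 (SE, n = 3 each) had an interval from -0.08 to 0.18. CycB3, which acts with cyclin B in anaphase onset, had 261.1, 237.8 and 268.1 on the spotted-dick arrays, against 247.6, 245.4 and 237.7 on the GFP arrays. Spotted-dick replicate 2 lay level with the GFP arrays, and the change was 0.06 ± 0.09 (SE). The kinase gene gwl, which encodes Greatwall, had 195.9, 163.4 and 189.3 on the spotted-dick arrays, against 164.5, 136.4 and 145.8 on the GFP arrays. Only GFP replicate 1 reached into the range of the spotted-dick arrays. The gwl change was 0.27 ± 0.11 (SE, limma adjusted p = 0.301), with 0.35 within fluidics station 1 and 0.25 within station 2.

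The arrays were washed on 2 fluidics stations, which split both groups. Station 1 held spotted-dick replicate 1 with GFP replicates 1 and 2, and station 2 held spotted-dick replicates 2 and 3 with GFP replicate 3. The median change of the 25 genes was 0.08 within each station, against 0.01 in each over all tested genes. Of the 25, 13 lay above 0 in both stations, 1 below 0 in both and 11 on opposite sides. The same split was not counted over all tested genes, so these counts only describe the 25. Each within-station value rests on 1 array of 1 group.

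**Figure D2:**
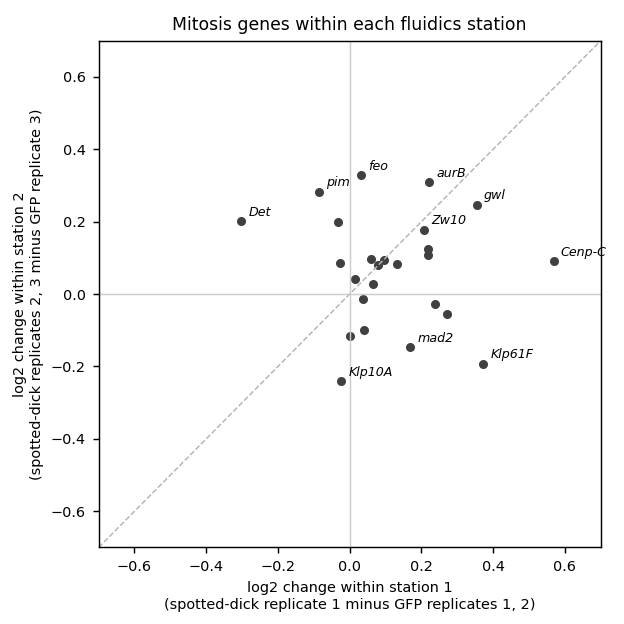
Each point is 1 of the 25 mitosis genes, with its log2 change (spotted-dick RNAi minus GFP RNAi) within fluidics station 1 on the x axis and within station 2 on the y axis; the dashed line marks equal changes. Cenp-C lies far right at 0.57 and 0.09, and 11 of the 25 genes change sign between stations, a share not counted over all tested genes.

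The chromosomal passenger complex corrects faulty spindle attachments and later directs cytokinesis. Of its 4 measured genes 0 passed, against 2.47% of all tested genes. Its kinase gene aurB (Aurora B) had signals of 302.9, 283.9 and 314.8 on the spotted-dick arrays, against 233.2, 284.4 and 238.3 on the GFP arrays. GFP replicate 2 alone reached the spotted-dick range, and the change of 0.24 ± 0.09 (SE) did not pass (limma adjusted p = 0.279). Its values were 0.22 within station 1 and 0.31 within station 2. Incenp, the scaffold that binds and activates the kinase, had 621.1, 498.4 and 653.4 on the spotted-dick arrays, against 626.0, 615.2 and 619.7 on the GFP arrays. Spotted-dick replicate 2 stood below the other 5 arrays, and the change was -0.08 ± 0.09 (SE). The borealin gene borr, a targeting subunit, had 526.5, 513.7 and 534.0 on the spotted-dick arrays, against 526.5, 515.8 and 508.1 on the GFP arrays. Its 6 values hardly differed, and its interval ran from -0.12 to 0.165. Det, the fly survivin gene, had 193.5, 195.9 and 246.7 on the spotted-dick arrays, against 206.2, 284.0 and 189.1 on the GFP arrays. The high value of GFP replicate 2 put its change at -0.30 within station 1, while within station 2 it was 0.20, and over all arrays it was -0.08 ± 0.13 (SE).

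Checkpoint genes lay between -0.07 for Bub1 and 0.20 for Zw10, and 0 of the 7 measured passed, against 2.47% of all tested genes. Zw10, part of the RZZ complex that brings dynein and Mad proteins to kinetochores, had signals of 492.8, 454.3 and 532.2 on the spotted-dick arrays, against 410.6, 438.3 and 432.7 on the GFP arrays. The groups did not overlap, and the change was 0.20 ± 0.08 (SE, limma adjusted p = 0.295), with 0.21 within station 1 and 0.18 within station 2. The rod gene, which encodes another RZZ subunit, had 272.3, 215.0 and 264.1 on the spotted-dick arrays, against 237.2, 226.1 and 219.9 on the GFP arrays. Here spotted-dick replicate 2 was the lowest of the 6 arrays, and the change was 0.12 ± 0.10 (SE).

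Bub3, a WD-repeat protein that docks Bub1 and BubR1 at kinetochores, had signals of 1230.6, 1218.1 and 1406.2 on the spotted-dick arrays, against 1146.7, 1095.2 and 1233.5 on the GFP arrays. GFP replicate 3 lay just above the 2 lower spotted-dick arrays, and the change was 0.15 ± 0.07 (SE, limma adjusted p = 0.400). Bub1, the kinase-family partner of Bub3, had 237.7, 207.1 and 206.6 on the spotted-dick arrays, against 207.6, 255.9 and 222.7 on the GFP arrays. Its groups overlapped and its change was -0.07 ± 0.10 (SE). The checkpoint effector gene mad2, whose product binds and restrains the activator of the anaphase-promoting complex, had 627.2, 565.6 and 606.1 on the spotted-dick arrays, against 536.4, 575.9 and 650.1 on the GFP arrays. The mad2 groups overlapped, with 0.17 within station 1, -0.15 within station 2 and 0.03 ± 0.08 (SE) over all arrays. Mad1, which anchors Mad2 at kinetochores, changed by 0.06 ± 0.09 (SE), and its interval ran from -0.12 to 0.25. Mps1, the kinase that starts checkpoint signalling, had 113.4, 105.9 and 108.0 on the spotted-dick arrays, against 90.7, 91.7 and 111.6 on the GFP arrays. GFP replicate 3 stood with the spotted-dick arrays, and the change was 0.14 ± 0.12 (SE), or 0.27 within station 1 and -0.05 within station 2.

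**Figure D3:**
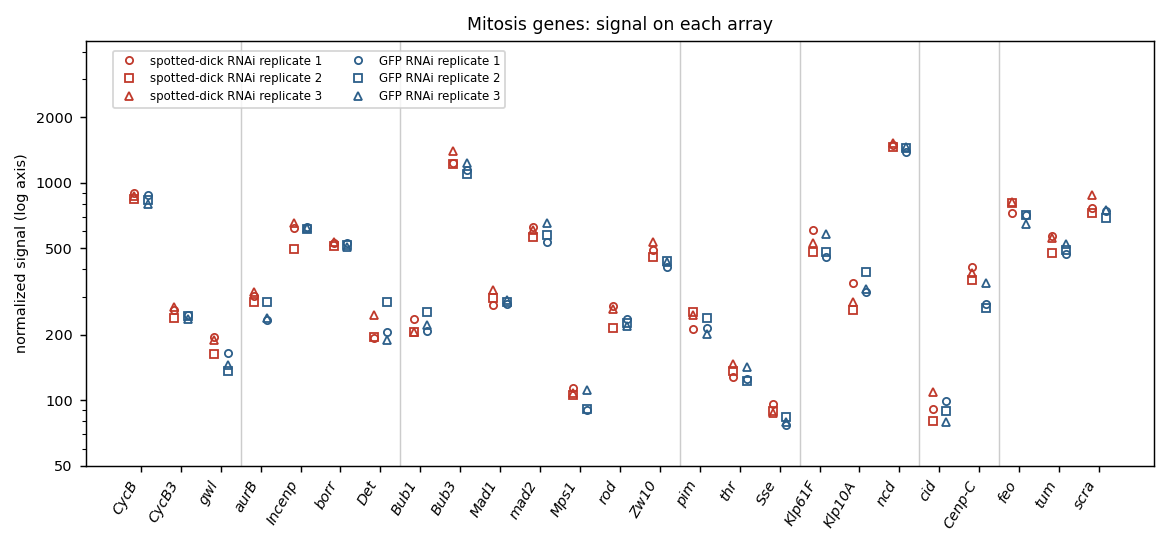
Quantile-normalized signal (log axis) of each of the 25 measured mitosis genes on the 3 spotted-dick RNAi arrays (red) and the 3 GFP RNAi arrays (blue), with a symbol per replicate and vertical lines between roles. For most genes the groups overlap; for Zw10, Sse, Cenp-C and feo every spotted-dick value lies above every GFP value.

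Securin and separase, the inhibitor and the protease that time sister separation, showed small differences. The securin gene pim had signals of 212.9, 254.4 and 245.5 on the spotted-dick arrays, against 214.4, 240.2 and 202.6 on the GFP arrays. They overlapped, with -0.09 within station 1 and 0.28 within station 2, and a change of 0.11 ± 0.10 (SE) over all arrays. Sse, the separase protease, had 95.8, 89.4 and 87.1 on the spotted-dick arrays, against 76.8, 83.7 and 79.6 on the GFP arrays. Its groups did not overlap, but its interval ran from -0.10 to 0.40 (limma adjusted p = 0.663). For thr, which encodes the regulatory partner that fly separase needs, the change was 0.06 ± 0.11 (SE) and the groups overlapped.

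Among spindle motors, Klp10A had the lowest change of the 25 genes. Klp10A, a kinesin that takes tubulin off microtubule ends, had signals of 344.6, 260.3 and 284.0 on the spotted-dick arrays, against 314.0, 390.7 and 324.2 on the GFP arrays. Spotted-dick replicate 1 lay among the GFP arrays and the other 2 lay below them, and the change of -0.20 ± 0.11 (SE) did not pass (limma adjusted p = 0.483). It was -0.02 within station 1 and -0.24 within station 2. Klp61F, the kinesin that slides antiparallel microtubules and keeps spindles bipolar, had 610.0, 483.1 and 529.5 on the spotted-dick arrays, against 454.4, 480.8 and 580.2 on the GFP arrays. The station values had opposite signs, 0.37 and -0.19, and the change over all arrays was 0.10 ± 0.10 (SE). The minus-end motor gene ncd had 1488.2, 1458.5 and 1530.3 on the spotted-dick arrays, against 1392.0, 1450.4 and 1464.4 on the GFP arrays. All 6 ncd values lay close together, with GFP replicate 3 inside the spotted-dick range, and the interval ran from -0.06 to 0.17.

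Cenp-C had the largest change and the smallest p of the 25 genes. It encodes a protein that links centromeric chromatin to the outer kinetochore. Its signals were 409.9, 356.0 and 386.1 on the spotted-dick arrays, against 276.5, 265.8 and 347.1 on the GFP arrays. Every spotted-dick array lay above every GFP array, spotted-dick replicate 2 and GFP replicate 3 being close. The change was 0.36 ± 0.10 (SE, 95% interval 0.15 to 0.58), a 1.29-fold difference, with limma adjusted p = 0.0932. It was 0.57 within station 1 and 0.09 within station 2. Without GFP replicate 3 it was 0.48 and passed (limma adjusted p = 0.0282), the single call of any member in 17 refits, and 1.52% of tested genes passed in that refit. Over the refits the change ran from 0.10 to 0.48, the low end with the deposited values, and the adjusted p from 0.0282 to 0.812. The centromeric histone gene cid, whose product Cenp-C binds to, had 91.7, 80.6 and 109.5 on the spotted-dick arrays, against 99.2, 89.1 and 79.9 on the GFP arrays. The cid groups overlapped and its change was 0.06 ± 0.13 (SE).

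The cytokinesis genes differed by less than 0.2. For feo, which encodes the bundler of midzone microtubules, signals were 728.7, 811.5 and 813.3 on the spotted-dick arrays, against 713.8, 710.9 and 643.5 on the GFP arrays. The groups did not overlap, though spotted-dick replicate 1 lay near GFP replicates 1 and 2, and the change was 0.18 ± 0.07 (SE, limma adjusted p = 0.283). It was 0.03 within station 1 and 0.33 within station 2. The gene tum, encoding a subunit of centralspindlin, had 571.9, 477.3 and 555.1 on the spotted-dick arrays, against 472.5, 493.6 and 525.2 on the GFP arrays. Spotted-dick replicate 2 lay among the GFP arrays, and the change was 0.10 ± 0.08 (SE). The anillin gene scra, whose product ties actin, myosin and septins together in the cleavage furrow, had 764.9, 728.2 and 877.8 on the spotted-dick arrays, against 741.5, 689.5 and 747.4 on the GFP arrays. It overlapped between groups and changed by 0.12 ± 0.08 (SE, limma adjusted p = 0.585).

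In all, 4 of the 25 genes had groups that did not overlap as higher, namely Zw10, Sse, Cenp-C and feo, and 0 as lower, against 10.4% of tested genes as higher and 8.53% as lower. With the deposited signals, 0 were higher without overlap and 1, mad2, was lower, against 1.22% and 12.8% of tested genes. The direction of the group hung on the scaling: after quantile normalization 21 of 25 changes lay above 0, against 52.7% of tested genes, and with the deposited values 2 did, against 14.5%, when the median over all tested genes was itself -0.21. Set against all tested genes, the median of the 25 lay 0.09 higher after quantile normalization and 0.04 higher with the deposited values.

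The array medians showed which samples carried that difference. On the quantile-normalized scale, the median deviation of the 25 genes from their own means over 6 arrays was 0.07, -0.01 and 0.11 on spotted-dick arrays 1 to 3, against -0.07, -0.03 and -0.02 on GFP arrays 1 to 3. Spotted-dick replicate 2 lay close to GFP replicates 2 and 3, while spotted-dick replicates 1 and 3 lay further above the GFP arrays. Of the 25 genes, 20, 9 and 23 lay above their own mean on the spotted-dick arrays, against 4, 6 and 12 on the GFP arrays. Without spotted-dick replicate 3 the median change was 0.05, and without spotted-dick replicate 2 it was 0.14.

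**Figure D4:**
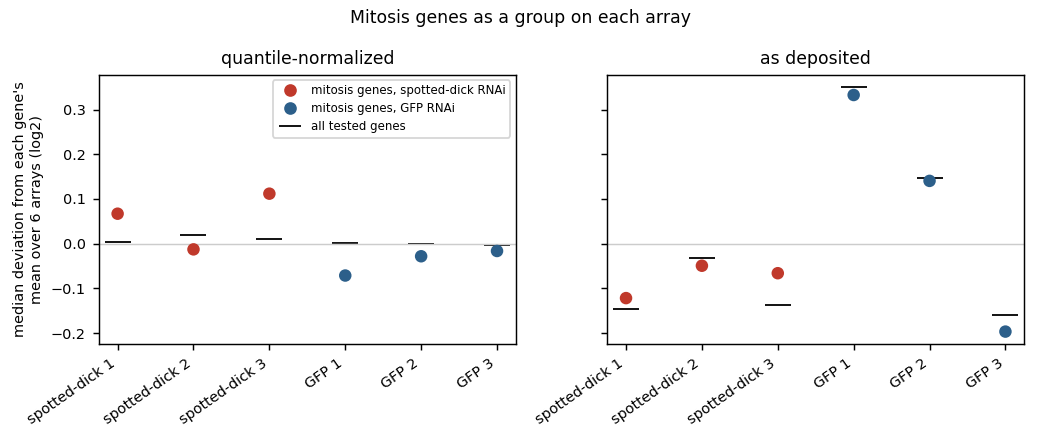
Median deviation (log2) of the 25 mitosis genes from each gene's mean over 6 arrays, per array, after quantile normalization (left) and as deposited (right); black dashes are the same median over all tested genes. After normalization spotted-dick replicates 1 and 3 lie highest, at 0.07 and 0.11, and as deposited the mitosis genes follow the brightness of each array.

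Other genes of the pathway, from a list of 100 covering entry regulators, the anaphase-promoting complex, kinetochore, spindle, centrosome and cytokinesis, gave a few calls in either direction. Of 83 with a probe set, 81 were tested, and 2 rose and 2 fell in limma, set against the same 0.774% and 1.69% of all tested genes. Their median change was 0.05. The chromokinesin gene nod, known for holding chromosomes without crossovers on the female meiotic spindle, had signals of 242.2, 198.1 and 181.0 on the spotted-dick arrays, against 140.4, 118.7 and 99.3 on the GFP arrays. The groups stood well apart, and nod rose by 0.72 ± 0.13 (SE, limma adjusted p = 0.00682), with 0.83 within each station. With the deposited values its change of 0.45 did not pass (limma adjusted p = 0.450). The nod call was kept in 13 of 17 refits, with adjusted p from 0.00107 to 0.450.

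The anaphase-promoting complex, with 11 tested genes, gave 1 call in each direction, against 0.774% higher and 1.69% lower of all tested genes. Its subunit gene APC7 had signals of 35.2, 29.3 and 43.2 on the spotted-dick arrays, against 80.4, 74.3 and 67.1 on the GFP arrays. All spotted-dick arrays lay below all GFP arrays, and APC7 fell by 0.80 ± 0.15 (SE, limma adjusted p = 0.00886). That call was kept in 13 of 17 refits. Leaving out GFP replicate 1 or GFP replicate 2 ended it (limma adjusted p = 0.0687 and 0.0589). Keeping all probe sets or dropping the limma intensity trend also ended it (limma adjusted p = 0.118 and 0.0778). Over the refits the adjusted p ran from 0.000257 to 0.118. The late activator gene fzr had 147.7, 135.0 and 141.6 on the spotted-dick arrays, against 97.4, 96.0 and 97.1 on the GFP arrays. It rose by 0.48 ± 0.10 (SE, limma adjusted p = 0.0247), a call kept in 7 of 17 refits and lost when any array other than spotted-dick replicate 2 was left out (highest of those adjusted p = 0.113; range over refits 0.0167 to 0.650). With the deposited values the fzr change of 0.23 did not pass (limma adjusted p = 0.628). The mitotic activator gene fzy, with 685.4, 699.8 and 729.5 on the spotted-dick arrays, against 593.4, 611.7 and 610.0 on the GFP arrays, had a change of 0.21 ± 0.06 (SE) that did not pass (limma adjusted p = 0.129).

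Of the 15 tested cytokinesis genes on that list, pbl alone passed, as lower, against 1.69% of all tested genes. It encodes a protein needed for cleavage furrow formation that works with the centralspindlin proteins encoded by tum and pav. Its signals were 940.8, 949.1 and 1001.1 on the spotted-dick arrays, against 1234.7, 1199.6 and 1188.9 on the GFP arrays. The groups did not overlap, and pbl fell by 0.32 ± 0.06 (SE, limma adjusted p = 0.00584), with -0.37 within station 1 and -0.28 within station 2. With the deposited values the change of -0.58 did not pass (limma adjusted p = 0.190). The pbl call was kept in 14 of 17 refits, with adjusted p from 0.005 to 0.194. The gene fws, which encodes a Golgi tethering subunit needed for male meiotic cytokinesis, had a change of -0.39 ± 0.10 (SE) that did not pass (limma adjusted p = 0.0788).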

How the data were processed

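The authors deposited 1 linear intensity per probe set and array. How probes were combined, corrected for background and scaled is not given in the sources used here. Of 18894 probe sets, 125 were controls, and of the other 18769 the platform annotation paired 13647 with 1 gene, 402 with several and 4720 were unnamed here. Gene IDs of 13544 matched the RefSeq Release 6 table. That table was used to match listed symbols and synonyms to gene IDs, for names and for neighbours. Array medians and trimmed means (2% trimmed from each end) differed 1.28 and 1.51 times, so arrays were quantile-normalized, unlike an earlier account of these data, which used them as deposited. Probe sets under the 40th percentile of mean log2(signal + 16) were left out, which left 11261, and limma 3.58.1 in R 4.3.3 (lmFit, eBayes with an intensity trend) compared the groups, with Benjamini-Hochberg adjustment over all of them. Where a gene had several probe sets, that with the highest mean stood for it. The members and lists were chosen with earlier results of these data known. The rule for names took all members, pita and Orc4, up to 3 hemocyte markers with the highest mean, and of the other mitosis genes those called and up to 6 with the smallest p. Fluidics stations are per the file headers. In 5 simulated draws of this comparison with 200 of 18769 probe sets changed, 92.0% of those changed by 1 on the log2 scale and 93.0% by 2 were called, and 5.03% of calls were false. Without normalization these shares were 81.2%, 93.4% and 2.57%, so fewer calls were false there. Alternatives were the deposited values, median centring, scaling to 9 hybridisation controls, a pseudocount of 1 or 64, and keeping all probe sets. Others were keeping those above the 60th percentile, no trend, robust estimation, replicate number or station as a block, and each array left out. Promoter motifs planned for the members were not used here. Python 3.11.15 with matplotlib 3.10.9 drew the figures.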

Additional observations from a re-analysis of the deposited data

How the results depend on the processing

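Over 17 refits, 0 of the 25 mitosis genes passed in 16, and 1, Cenp-C, passed as higher in that without GFP replicate 3. The median change of the 25 was 0.097 here, -0.171 with the deposited values and -0.107 with median centring. It ran from 0.053 to 0.145 with 1 array left out. With median centring the median over all tested genes was itself -0.146. Scaling to hybridisation controls gave a median of 0.111 for the 25, with 21 above 0. Relative to all tested genes the median of the 25 ran from 0.039 to 0.131. Signs changed for 19 and 18 of the 25 genes with the deposited values and median centring, and for at most 2 in any other refit. Of all probe sets, 69 passed as higher and 161 as lower. As higher, 11 passed with the deposited values and 16 with median centring. Without the filter the counts were 37 and 89, and without the trend 18 and 35. With 1 array left out they ran from 34 to 79 and from 82 to 170. For the other mitosis genes, 2 higher and 2 lower here, the counts were 0 and 1 with the deposited values, with median centring and without the filter, 0 and 0 without the trend, and 1 to 2 and 1 to 3 with 1 array left out. Same-numbered samples did not deviate together (r = -0.064, -0.033 and 0.05), so the numbers were not taken as pairs. Spotted-dick replicate 2 correlated best with GFP replicate 1 (r = 0.101). With the replicate block 1 other mitosis gene passed as higher, the fzr call being lost (adjusted p = 0.0662), and 0 of the 25. How often changes under 1 on the log2 scale would be called was not simulated.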

Other observations

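The 34 listed genes lay on all large chromosome arms, 5 on 2L, 9 on 2R, 7 on 3L, 10 on 3R and 3 on X. Of the protein-coding genes next to them in the RefSeq order, 2 were called: alt, next to Mps1, as lower, and CG1635, next to rod, as higher (both chosen after their values were seen). So 5.88% of the 34 had a called neighbour, against 3.22% of 8190 tested genes. The 34 include the 9 without a probe set, so the shares are over unlike sets. Mps1 and rod did not pass themselves, with changes of 0.14 and 0.12.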
